A study of Mus musculus with 6 samples.

Results

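The genes described here encode titin and the proteins that hold the cardiac sarcomere together at its Z-disc and along its filaments: *Ttn*, *Mybpc3*, *Actn2*, *Ldb3*, *Tcap*, *Csrp3*, *Myoz2*, *Des*, *Fhl2* and *Lmod2*. They were chosen by symbol, and all 10 were among the 17145 genes of the deposited table and among the 7665 genes with at least 10 UMIs over the 6 libraries, which were tested. A UMI is a random tag that lets each captured mRNA molecule be counted once. Small areas of fresh-frozen heart sections were profiled by photo-isolation chemistry, in which light releases the primers only in irradiated areas, followed by CEL-seq2 libraries that read the 3′ end of transcripts. All hearts came from FS6KD mice, whose cardiac *Ndufs6*, a complex I subunit, is lowered by a gene trap on a mixed C57BL/6J and 129/Ola background; the labels give the mice as female and the cells as cardiomyocytes, and no age. Areas were picked by anti-Atf3 immunostaining inside Atf3-positive clusters, and 3 Atf3 high libraries were compared with 3 Atf3 low libraries; wild-type hearts were not analysed here. The study calls the libraries biological replicates, and the labels do not say whether an Atf3 high and an Atf3 low library share a heart.

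The Atf3 high libraries held 184872, 81117 and 210588 UMIs (replicates 1, 2 and 3) and the Atf3 low libraries held 171536, 125522 and 81917. Levels are given as CPM, the UMI count scaled to a common library size with TMM factors, on which scale 1 UMI was worth between 4.66 CPM in the deepest library and 13.6 CPM in Atf3 low replicate 3. *Ndufs6*, the knocked-down gene, was seen with 2, 0 and 3 UMIs in Atf3 high, against 0 in each Atf3 low library. *Atf3*, whose protein was used to choose the areas, had 50, 7 and 25 in Atf3 high, against 35, 0 and 8 in Atf3 low. These counts are not scaled for depth, and those of *Atf3* overlapped between the groups. Atf3 high replicate 2 went against its female label: it had 8 UMIs of *Ddx3y* and 8 of *Eif2s3y*, both Y-linked, and 0 of *Xist*, whereas the other 5 libraries had between 3 and 26 UMIs of *Xist* and at most 1 from the Y-linked pair. It is called the library labelled Atf3 high replicate 2 below where values without it are given. The 9 cardiomyocyte markers (*Tnnt2*, *Tnni3*, *Myh6*, *Actc1*, *Ryr2*, *Pln*, *Myl2*, *Myl3* and *Tnnc1*) had UMIs in all 6 libraries.

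Titin spans from the Z-disc to the M-band as a spring that sets passive stiffness and centres the thick filament, and at the Z-disc its end is capped by telethonin and anchored to α-actinin, which cross-links the thin filaments of neighbouring sarcomeres. LIM-domain and PDZ proteins on this lattice carry signals as well as force, and several of them move between the sarcomere and the nucleus. Desmin filaments tie the Z-discs to each other, to mitochondria and to the cell membrane, and variants in several of these genes cause inherited cardiomyopathy.

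None of the 10 genes was called between Atf3 high and Atf3 low (0 at an adjusted p under 0.05 by edgeR, DESeq2 or limma-trend), where 7 of 7665 genes (0.0913%) were called by edgeR. *Fhl2* alone had an unadjusted p under 0.05, and it was lower in Atf3 high; over all genes tested, 172 (2.24%) were lower at that p and 272 (3.55%) were higher. The groups overlapped for every one of the 10 genes, while 298 genes (3.89%) had all 3 Atf3 high levels below all 3 Atf3 low levels. A log2 fold change above 0 means a higher level in Atf3 high; it was below 0 for 9 of the 10 genes, and the median of the 10 was −0.28 beside 0.11 for all genes tested. The mean of the 10 genes on the log2(CPM + 4) scale was 8.85, 8.89 and 9.79 in Atf3 high, against 9.36, 9.69 and 9.77 in Atf3 low, so that the groups overlapped through Atf3 high replicate 3. The direction of small changes depended on the scaling: with library size alone in place of TMM, the median of all genes moved to 0.31 and 5 of the 10 genes were below 0. With either scaling all 10 were below the median of all genes, while 7 were below it without Atf3 high replicate 1. Of all genes with an unadjusted p under 0.05, 61.3% were higher in Atf3 high with TMM and 79.8% with library size alone. Without the library labelled Atf3 high replicate 2, none of the 10 had an unadjusted p under 0.05, none was free of overlap, and their median was −0.25. The count at an unadjusted p under 0.05 was also 0 when Atf3 high replicate 1 or Atf3 low replicate 3 was left out, and leaving out a library moved the median from −0.50 (without Atf3 high replicate 3, 10 genes below 0) to −0.10 (without Atf3 high replicate 1, 6 genes below 0). In tissue areas such as these, fewer cardiomyocytes and less RNA per cardiomyocyte cannot be told apart.

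**Figure D1:**
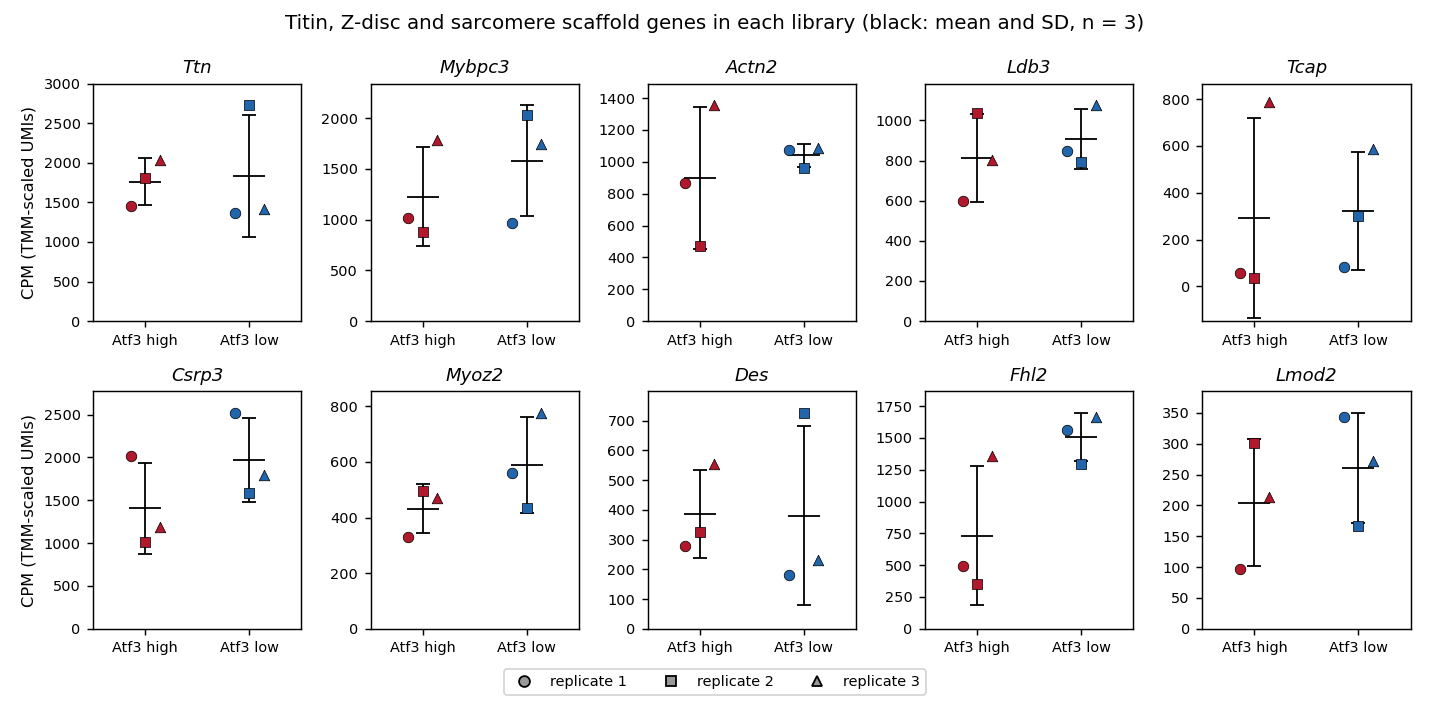
Level of each gene in each library, as CPM of TMM-scaled UMI counts on the vertical axis, with Atf3 high in red and Atf3 low in blue, marker shape giving the replicate number, and black lines the mean and SD of 3 libraries. *Fhl2* levels of Atf3 high replicates 1 and 2 (493 and 350 CPM) lie below all 3 Atf3 low levels, and the groups overlap in every panel.

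*Ttn* encodes titin, which the annotation places on chromosome 2 (76703980 to 76982547, minus strand, GRCm38) with up to 347 exons in a transcript. Its level was 1448, 1810 and 2031 CPM in Atf3 high, against 1368, 2728 and 1416 CPM in Atf3 low. All Atf3 high levels lay inside the range of the Atf3 low levels, which Atf3 low replicate 2 stretched upward. Its log2 fold change was −0.061 (standard error 0.35, 95% interval −0.77 to 0.64), so neither a doubling nor a halving lay inside the interval. Its sign turned in 6 of 14 alternatives, with values from −0.28 without Atf3 low replicate 1 to 0.29 without Atf3 low replicate 2. *Mybpc3* encodes cardiac myosin-binding protein C of the thick filament (chromosome 2, 91118144 to 91136516, plus strand). It stood at 1011, 881 and 1789 CPM in Atf3 high, against 970, 2027 and 1743 CPM in Atf3 low. The libraries formed a low set (Atf3 high replicates 1 and 2 and Atf3 low replicate 1) and a high set (the other 3) that cut across the groups. The log2 fold change of *Mybpc3* was −0.36 (standard error 0.37, adjusted p = 0.996, edgeR), and −0.18 without the library labelled Atf3 high replicate 2 as when Atf3 low replicate 2 was left out. Leaving out Atf3 high replicate 3 gave −0.74, and leaving out Atf3 low replicate 1 gave −0.66. In the fit without Atf3 low replicate 1 the groups no longer overlapped. On the CPM given here, though, Atf3 high replicate 3 (1789) still lay above Atf3 low replicate 3 (1743).

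*Actn2*, the sarcomeric α-actinin gene on chromosome 13 (12269426 to 12340760, minus strand), was measured at 869, 471 and 1355 CPM in Atf3 high, against 1071, 959 and 1090 CPM in Atf3 low. The Atf3 low libraries lay close together, within 1.14 times of each other, and inside the Atf3 high range, which spanned 2.88 times from replicate 2 to replicate 3. The log2 fold change of −0.20 (standard error 0.38) became 0.086 without the library labelled Atf3 high replicate 2 and −0.62 without Atf3 high replicate 3, where the groups no longer overlapped. *Ldb3* encodes the PDZ and LIM protein Cypher, which binds α-actinin (chromosome 14, 34526603 to 34588682, minus strand), and had 600, 1038 and 801 CPM in Atf3 high against 849, 793 and 1076 CPM in Atf3 low. The groups overlapped, and the log2 fold change was −0.16 (standard error 0.37). It was 0.045 with library size alone, −0.38 without the library labelled Atf3 high replicate 2 and 0.022 when Atf3 high replicate 1 was left out. *Myoz2* encodes calsarcin-1, which tethers calcineurin to α-actinin (chromosome 3, 123006206 to 123035015, minus strand). It had 330, 495 and 470 CPM in Atf3 high, against 559, 434 and 776 CPM in Atf3 low. Only Atf3 low replicate 2 fell within the Atf3 high range, and the log2 fold change was −0.45 (standard error 0.40), below 0 in all 14 alternatives. It ran from −0.68 without Atf3 low replicate 2, where the groups no longer overlapped, to −0.23 without Atf3 low replicate 3.

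*Tcap* encodes telethonin, the cap of the titin ends, from a short gene of 2 exons on chromosome 11 (98383811 to 98384953, plus strand). It had 11, 3 and 169 UMIs in Atf3 high, against 12, 36 and 43 in Atf3 low, or 55.9, 36.2 and 787 CPM and 80.9, 300.3 and 586 CPM. Replicate 3 was the highest library of each group, the difference within Atf3 high was 21.7 times from replicate 2 to replicate 3, and the groups overlapped throughout. The pooled within-group SD of *Tcap* was 1.93 on the log2(CPM + 4) scale, the largest of the 329 genes with at least as many UMIs, where the median over the 291 genes with at least 300 UMIs was 0.432 (this comparison was chosen after its values were seen). For *Tcap* the log2 fold change was −0.033 (standard error 0.63, 95% interval −1.31 to 1.24), and it turned in 6 of 14 alternatives. It ran from −2.68 without Atf3 high replicate 3, where the groups no longer overlapped, to 0.72 without Atf3 low replicate 3. Without the library labelled Atf3 high replicate 2 it was 0.43. The value of −2.68 lies outside the 95% interval given, whose width rests on a spread drawn toward that of other genes. *Csrp3* encodes muscle LIM protein, a Z-disc protein that also enters the nucleus (chromosome 7, 48830398 to 48848033, minus strand). Its level was 2012, 1014 and 1188 CPM in Atf3 high, against 2520, 1585 and 1798 CPM in Atf3 low. Atf3 high replicates 2 and 3 lay below all Atf3 low libraries, and Atf3 high replicate 1 lay above 2 of them. The log2 fold change was −0.48 (standard error 0.35, 95% interval −1.19 to 0.23, adjusted p = 0.969, edgeR), below 0 in all 14 alternatives. It was −0.83 without Atf3 high replicate 1, where the groups no longer overlapped, and −0.31 both without the library labelled Atf3 high replicate 2 and when Atf3 low replicate 1 was left out.

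*Fhl2* encodes a four-and-a-half LIM protein that binds the elastic I-band and M-band regions of titin and acts as a transcriptional cofactor (chromosome 1, 43123074 to 43196984, minus strand). Its UMI counts were 97, 29 and 291 in Atf3 high, against 232, 155 and 122 UMIs in Atf3 low, or 493, 350 and 1355 CPM against 1563, 1293 and 1662 CPM. Atf3 high replicates 1 and 2 were below every Atf3 low library, but Atf3 high replicate 3 was above Atf3 low replicate 2, so the groups overlapped by a single pair of libraries. The mean was 733 ± 544 CPM in Atf3 high, against 1506 ± 191 CPM in Atf3 low (SD, n = 3 libraries each). Its log2 fold change was −1.02 (standard error 0.40), or 0.493 times the Atf3 low level (95% interval 0.283 to 0.861). It did not pass the test across all genes (adjusted p = 0.679, edgeR), where it was number 159 by p, and the adjusted p was 0.648 by DESeq2 and 0.647 by limma-trend. Its direction held in all 14 alternatives, with log2 fold changes from −1.83 without Atf3 high replicate 3 to −0.71 without the library labelled Atf3 high replicate 2. Leaving out Atf3 high replicate 3, the library that overlapped, brought the adjusted p to 0.0496, leaving out Atf3 high replicate 1 brought it to 0.9996, and leaving out the library labelled Atf3 high replicate 2 brought it to 0.9998 (edgeR). With the replicate block, which pairs libraries of equal number although the Y-linked counts and *Xist* speak against a shared heart for number 2, *Fhl2* was called (log2 fold change −1.26, adjusted p = 0.0263, edgeR). It was not called in the alternatives other than the block and leaving out Atf3 high replicate 3.

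*Des* encodes desmin, the muscle intermediate filament protein (chromosome 1, 75360329 to 75368579, plus strand). Its level was 279, 326 and 554 CPM in Atf3 high, against 182, 726 and 232 CPM in Atf3 low. Atf3 low replicate 2 was the highest library and the other Atf3 low libraries were the lowest, with all Atf3 high libraries in between. For *Des* the fitted log2 fold change was 0.027 (standard error 0.46), the only one of the 10 above 0, and it ranged from −0.36 without Atf3 low replicate 1 to 0.88 without Atf3 low replicate 2. *Lmod2* encodes leiomodin 2, which elongates thin filaments at their pointed ends (chromosome 6, 24597762 to 24605414, plus strand). With 181 UMIs in all it had the fewest counts of the 10 genes, at 96.5, 302 and 214 CPM in Atf3 high, against 344, 167 and 272 CPM in Atf3 low. The groups overlapped, and the log2 fold change was −0.39 (standard error 0.49), or −0.76 without the library labelled Atf3 high replicate 2 and −0.031 without Atf3 high replicate 1.

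**Figure D2:**
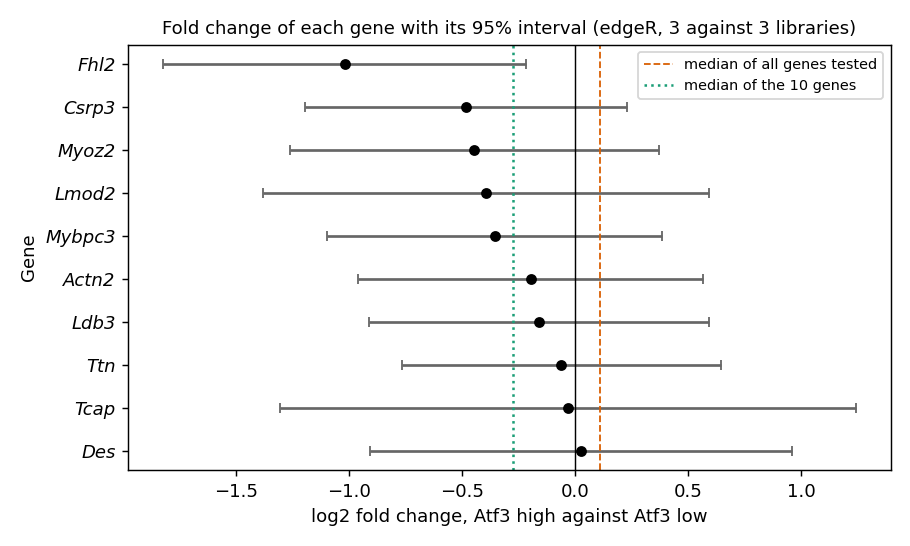
Log2 fold change of each gene, Atf3 high against Atf3 low, on the horizontal axis with its 95% interval from edgeR (3 against 3 libraries), with dashed and dotted lines at the medians of all genes tested (0.11) and of the 10 genes (−0.28). The interval of *Fhl2* lies below 0, and the intervals of the other 9 genes hold 0.

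The 95% interval held 0 for 9 of the 10 genes, and for 4 of them (*Ttn*, *Actn2*, *Ldb3* and *Des*) it held neither a doubling nor a halving. Together the 10 genes took 0.766%, 0.687% and 1.08% of the UMIs in Atf3 high, against 0.823%, 1.05% and 0.955% in Atf3 low, that is 0.843% ± 0.205 and 0.943% ± 0.115 (SD, n = 3 libraries each). These shares overlapped, with Atf3 high replicate 3 the highest of all. Within Atf3 high, replicate 3 was the highest library for 6 of the genes and the lowest for 0, and within Atf3 low, replicate 3 was the highest for 5 and the lowest for 0. The composition of the set also moved between libraries. *Csrp3* made up 28.0%, 15.1% and 11.3% of the UMIs of the 10 genes in Atf3 high, against 26.5%, 14.4% and 16.9% in Atf3 low, so that replicate 1 stood apart in both groups. *Fhl2* made up 6.85%, 5.21% and 12.9% in Atf3 high, against 16.4%, 11.7% and 15.6% in Atf3 low. *Ttn* made up 20.1%, 26.9% and 19.3% in Atf3 high, against 14.4%, 24.8% and 13.3% in Atf3 low, with replicate 2 the highest of each group.

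Profiles were compared over the 6 libraries by the root mean square difference of log2(CPM + 4), each gene centred on its own mean, among the 291 genes with at least 300 UMIs. The genes most like *Ttn* were *Svil* (0.161), which encodes the actin-binding protein supervillin, *Ndufs7* (0.226), a complex I subunit gene, and *Ehd4* (0.246). *Svil* had 305, 495 and 443 CPM in Atf3 high, against 330, 526 and 299.6 CPM in Atf3 low, with the same highest library as *Ttn*. The genes most like *Des*, the member with the highest fold change, were *Ttn* (0.362), *Tnnc1* (0.398), the cardiac troponin C gene, and the nuclear RNA *Neat1* (0.422). The genes most like *Fhl2*, the member with the lowest fold change, were *Lpl* (0.232), encoding lipoprotein lipase, *Pln* (0.250), encoding phospholamban, and *Acaa2* (0.252), an enzyme gene of mitochondrial fatty acid oxidation. *Lpl* had 2967, 1786 and 5231 CPM in Atf3 high, against 7709, 4980 and 6959 CPM in Atf3 low, and as for *Fhl2* only Atf3 high replicate 3 reached the Atf3 low range.

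Of 30 other Z-disc and actin-scaffold genes, 26 were tested, none was called (edgeR, DESeq2 and limma-trend), and at an unadjusted p under 0.05, 1 was lower and 2 were higher. Their median log2 fold change was −0.15 beside 0.11 for all genes, and it was above 0 with library size alone (0.052), with no filter (0.00025), without the library labelled Atf3 high replicate 2 (0.039) and when Atf3 low replicate 1 was left out (0.10), while leaving out Atf3 high replicate 3 gave −0.33. *Xirp2*, whose protein binds actin at intercalated discs and Z-discs, had 2922, 3090 and 1197 CPM in Atf3 high, against 1294, 1760 and 626 CPM in Atf3 low, and its log2 fold change was 0.96 (standard error 0.38, adjusted p = 0.699, edgeR). The groups of *Xirp2* overlapped through Atf3 high replicate 3. *Synpo2l*, which encodes an actin-binding Z-disc protein, had 351, 410 and 303 CPM in Atf3 high, against 121, 142 and 272 CPM in Atf3 low, without overlap, and its log2 fold change was 1.02 (standard error 0.47, adjusted p = 0.819, edgeR). *Pdlim5*, a PDZ and LIM gene of the family of *Ldb3*, had 299.8, 266 and 508 CPM in Atf3 high, against 701, 476 and 776 CPM in Atf3 low, and its log2 fold change was −0.84 (standard error 0.41, adjusted p = 0.854, edgeR). The Atf3 high libraries of *Pdlim5* reached the Atf3 low range only in replicate 3.

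Of 14 M-band and thick-filament scaffold genes, 9 were tested, 8 were below 0, and none was called (edgeR, DESeq2 and limma-trend) or had an unadjusted p under 0.05; the median was −0.36. It moved to −0.16 with library size alone (6 below 0), −0.21 with thinned counts and −0.21 without the library labelled Atf3 high replicate 2 (6 below 0). Leaving out Atf3 high replicate 1 gave −0.099 (6 below 0), leaving out Atf3 high replicate 3 gave −0.72, and leaving out Atf3 low replicate 3 gave −0.23. *Cmya5*, encoding myospryn, had the smallest p (log2 fold change −0.64, standard error 0.54), and *Myom1*, encoding myomesin 1, was at −0.39 (standard error 0.49). *Myom2*, the gene of a second M-band myomesin, had 17, 6 and 123 UMIs in Atf3 high, against 4, 23 and 58 in Atf3 low, and like *Tcap* it was highest in replicate 3 of each group (it was named after its values were seen).

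Of 22 intermediate filament, costamere and linker genes, 17 were tested, 7 below and 10 above 0, with a median of 0.035, which ran from −0.071 without Atf3 low replicate 3 to 0.25 with library size alone. None was called (edgeR, DESeq2 and limma-trend), and 1 had an unadjusted p under 0.05. *Vim*, the vimentin gene, was at log2 fold change 0.85 (standard error 0.49), and *Tln2*, a talin gene, at 1.55 (standard error 0.97) on 6, 8 and 10 UMIs in Atf3 high, against 2 in each Atf3 low library.

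Of 17 genes for titin splicing, ubiquitin ligases, proteases and small chaperones of the sarcomere, 14 were tested, none was called (edgeR, DESeq2 and limma-trend) and none had an unadjusted p under 0.05, with a median of 0.086. That median ran from 0.015 without Atf3 low replicate 2 to 0.30 with library size alone. The 3 of smallest p were *Hspb1* (log2 fold change 0.88, standard error 0.45), a small heat shock protein gene, and the autophagy receptor genes *Sqstm1* (0.68, standard error 0.41) and *Nbr1* (0.74, standard error 0.56). Of 5 titin I-band signalling partners, 3 were tested, *Fhl2* among them, 0 were called (edgeR, DESeq2 and limma-trend), and the median was 0.095. It was 0.31 with library size alone, 0.48 with no filter (4 genes), −0.084 without Atf3 low replicate 3 and −0.21 when Atf3 high replicate 1 was left out. *Fhl1*, the paralog of *Fhl2*, had 559, 628 and 256 CPM in Atf3 high, against 472, 175 and 177 CPM in Atf3 low, and its log2 fold change was 0.76 (standard error 0.46), on the other side of 0 from *Fhl2*. *Ankrd1*, which encodes the stress-responsive ankyrin repeat protein CARP, had 5813, 3307 and 3452 CPM in Atf3 high, against 4313, 4430 and 3023 CPM in Atf3 low, at 0.095 (standard error 0.32). The groups overlapped for both genes.

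Markers of cell types were summed in each library beside these values, and their part in the results was not tested. The 9 cardiomyocyte markers took 2.35%, 2.34% and 4.41% of the UMIs in Atf3 high, against 3.82%, 4.63% and 5.34% in Atf3 low, and all 9 had log2 fold changes below 0 (8 or 9 in each alternative). Their median was −0.58, or −0.38 with library size alone, −0.52 without the library labelled Atf3 high replicate 2 and −1.23 without Atf3 high replicate 3. At an unadjusted p under 0.05, 4 were lower (*Myh6*, *Actc1*, *Ryr2* and *Pln*), and 3 of these were lower without overlap (all but *Pln*). *Myl2*, the most abundant of them, stood at log2 fold change −0.54 (standard error 0.31), and *Myh6* was called (−1.81, standard error 0.32, adjusted p = 0.00512, edgeR). Its log2 fold change stayed between −2.22 and −1.58 whichever library was left out, while its adjusted p rose to 0.209 without Atf3 high replicate 1, 0.115 without the library labelled Atf3 high replicate 2, 0.0508 without Atf3 low replicate 1 and 0.273 without Atf3 low replicate 3, where it was not called. The 8 fibroblast markers took 0.555%, 0.285% and 0.113% in Atf3 high, against 0.224%, 0.143% and 0.0476% in Atf3 low. All 8 were above 0, 3 of them (*Col1a2*, *Col3a1* and *Postn*) had an unadjusted p under 0.05, and none was called by edgeR, DESeq2 or limma-trend, though with the replicate block *Col1a2* and *Col3a1* were, as was *Actc1*. The median of the fibroblast markers, 1.03, fell to 0.082 without Atf3 high replicate 1, with 4 of 7 above 0, and 7 of 8 were above 0 without Atf3 low replicate 2 or 3. *Col3a1*, the most abundant, had 315, 69 and 64 UMIs in Atf3 high, against 130, 38 and 4 in Atf3 low, and *Tcf21* was at 0 in 3 libraries. The 7 mural and smooth muscle markers, led by *Rgs5*, took between 0.0122% and 0.0757%. All 6 of those tested were above 0 (median 0.80, or 0.34 without Atf3 low replicate 3 and 0.42 when Atf3 high replicate 1 was left out), and *Cnn1* was at 0 in 4 libraries. The 7 endothelial markers, led by *Fabp4*, took between 0.0818% and 0.156%, and *Vwf* was at 0 in 3 libraries. Of the 6 tested, 3 were below and 3 above 0. Their median of 0.022 ran from −0.21 without Atf3 high replicate 1 to 0.37 without Atf3 low replicate 1. The 8 macrophage markers, led by *Lyz2*, took between 0.0142% and 0.0341%, with *Adgre1* and *Cd163* each at 0 in several libraries. Of the 6 tested, 4 were below and 2 above 0. Their median of −0.35 ran from −0.64 without Atf3 low replicate 1 to 0.23 without Atf3 high replicate 3. Of the 4 atrial markers, *Myl7* and *Sln* were at 0 in all 6 libraries and *Myl4* in 3, and *Nppa*, which stressed ventricles also express, was called (log2 fold change 3.22, standard error 0.69, adjusted p = 0.0345, edgeR), though not by limma-trend, with filterByExpr or with thinned counts. Without the library labelled Atf3 high replicate 2, which held 63 of its UMIs, against 31 and 24 in the other Atf3 high libraries, its log2 fold change fell to 1.91. *Nppa* was not called without it, nor without Atf3 high replicate 1 (3.59) or Atf3 low replicates 1, 2 and 3 (2.67, 3.13 and 3.78). Of the 6 skeletal muscle markers, *Myh4*, *Myh1* and *Tnnt3* were at 0 in all 6 libraries, and *Acta1*, which hearts also express, made up most of a sum between 0.153% and 0.423%. The 5 erythrocyte markers, led by *Hbb-bs*, took between 0% and 0.0160%. The share of UMIs from mitochondrial DNA was 18.4% ± 2.45 in Atf3 high, against 22.1% ± 0.416 in Atf3 low (SD, n = 3 libraries each).

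In the annotation, *Ttn* shares 453 exonic bases with the antisense gene *Gm13938*, and *Des* shares 220 with the antisense gene *Gm15179*, where the strand used in counting is not given in the sources used here, so that reads of these overlaps cannot be told apart; neither antisense gene is listed in the table. The *Gm22066* microRNA gene inside *Myoz2* and the *Gm8210* pseudogene inside *Fhl2* share no exonic base with them. A search of all annotated transcripts for copies of at least 95% identity over at least 200 bases found none for the 10 genes apart from the *Gm15179* overlap.

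RefSeq promoter windows (250 bases before to 50 after the transcript start, GRCm38.p6) matched 9 of the 10 genes with 12 windows, and *Tcap* had no match. They were searched on both strands for TGACGTCA, named by the study as the Atf3 consensus, for the AP-1 letters TGANTCA, for the letters CATTCC that TEAD factors bind, for the TATA box letters TATAAA, and for the CArG box and the MEF2 site, and no match overlapped another in these windows. TGACGTCA was in 0 of the 12 windows, beside 1.79% of the 32851 windows of the table. TGANTCA was in 3 windows, those of *Myoz2* and the overlapping pair of *Ldb3* (7.81% of all windows), CATTCC in that of *Ttn* (14.7%), and TATAAA in 1 of *Fhl2* (13.6%). The CArG box, which serum response factor binds, was in both windows of *Fhl2* and in the overlapping pair of *Ldb3* (1.63% of all windows), and the MEF2 site was in those of *Ttn*, *Mybpc3* and *Myoz2* (0.557% of all windows). A match describes letters in a window and not a site in use. The windows of *Fhl2*, the gene with the smallest p of the 10, and those of *Ttn* and *Mybpc3*, both with a MEF2 site, are printed 5′ to 3′ on the strand of the gene, with every match to a searched motif in capitals; the last 50 bases of each begin an annotated transcript. They lie at chr1:43196712-43197011 and chr1:43163912-43164211 for *Fhl2*, chr2:76982498-76982797 for *Ttn* and chr2:91117894-91118193 for *Mybpc3*. In the *Fhl2* windows the capitals are, in order, a CArG box and TATAAA on the opposite strand, starting 96 and 28 bases before the transcript start, and in the other window a CArG box 31 bases before it. In the *Ttn* window the MEF2 site starts 166 bases before the start and CATTCC follows it, and in the *Mybpc3* window the MEF2 site starts 90 bases before it.
Fhl2, upstream start: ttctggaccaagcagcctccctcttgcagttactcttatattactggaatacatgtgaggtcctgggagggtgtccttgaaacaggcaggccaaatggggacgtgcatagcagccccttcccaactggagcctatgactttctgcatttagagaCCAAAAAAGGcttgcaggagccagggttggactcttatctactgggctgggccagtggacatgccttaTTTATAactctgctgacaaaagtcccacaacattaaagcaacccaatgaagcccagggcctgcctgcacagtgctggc
Fhl2, downstream start: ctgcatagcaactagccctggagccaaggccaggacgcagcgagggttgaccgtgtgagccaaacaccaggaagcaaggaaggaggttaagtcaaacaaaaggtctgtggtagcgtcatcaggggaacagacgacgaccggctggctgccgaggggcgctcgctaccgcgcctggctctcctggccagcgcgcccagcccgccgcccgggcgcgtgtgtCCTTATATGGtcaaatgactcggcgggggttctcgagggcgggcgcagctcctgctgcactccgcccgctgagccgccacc
Ttn: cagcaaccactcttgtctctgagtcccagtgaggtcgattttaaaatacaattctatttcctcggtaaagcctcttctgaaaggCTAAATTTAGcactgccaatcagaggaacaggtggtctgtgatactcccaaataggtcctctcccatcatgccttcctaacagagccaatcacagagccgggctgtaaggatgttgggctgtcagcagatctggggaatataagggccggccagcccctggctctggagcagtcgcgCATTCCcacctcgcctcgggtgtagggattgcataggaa
Mybpc3: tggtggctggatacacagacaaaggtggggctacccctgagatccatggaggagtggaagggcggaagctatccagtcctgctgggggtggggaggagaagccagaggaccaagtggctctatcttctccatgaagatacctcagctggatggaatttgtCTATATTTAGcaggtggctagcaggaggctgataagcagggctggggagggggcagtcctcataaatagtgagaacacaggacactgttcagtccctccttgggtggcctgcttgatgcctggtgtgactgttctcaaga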

How the data were processed

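The 6 libraries came from photo-irradiated areas of FS6KD heart sections, 3 Atf3 high and 3 Atf3 low, and were grouped by their labels. The authors deposited raw UMI counts, 1 per gene and library. The submitters' processing notes name UMI-tools (version 1.0.0), HISAT2 (version 2.1.0), featureCounts (version 1.6.4) and GRCm38; the annotation release, the strand setting and the treatment of multi-mapping reads are not given in the sources used here. Depth ran from 81117 to 210588 UMIs, and replicate pairs differed by more than counting noise (chi-square over its degrees of freedom, 4.63 to 7.03).

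Genes with at least 10 UMIs in total were normalized by TMM and tested with the quasi-likelihood test of edgeR (version 4.0.16, R version 4.3.3), two-sided and with no covariate, and p-values were adjusted by Benjamini-Hochberg over all 7665 genes; an adjusted p under 0.05 was a call. The edgeR p-values, standard errors and intervals rest on the spread between these libraries, with the spread of each gene drawn toward that of other genes. The interval of a gene that varies more than most, such as *Tcap*, can therefore be too narrow. The standard error of a log2 fold change is its size divided by the square root of F. Likeness and spread used log2(CPM + 4). The test was checked on simulated counts. DESeq2 (version 1.42.0), limma-trend (limma version 3.58.1), 2 other scalings, 2 other filters, a replicate block, thinning to 81117 UMIs and leaving out each library were the alternatives.

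Genes named are the 10 members, the 3 of smallest p in each pathway list (2 of these genes are not reported here, though the list counts and medians include them), the most abundant gene of each marker list and the 3 profiles most like *Ttn*, *Des* and *Fhl2*; *Myom2*, the defining markers at 0, the markers with small p, the overlapping genes and *Ddx3y*, *Eif2s3y*, *Xist* and *Atf3* were named after their values were seen. Members and lists were chosen with earlier results of these data known. Positions came from GENCODE and copies from BLAST+ (version 2.17.0) of transcripts.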

Additional observations from a re-analysis of the deposited data

How the results depend on the processing

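With 3 libraries a group, the intervals of the 10 genes reached 0.78 to either side at the median on the log2 scale. Smaller differences could be missed, and so could larger ones, because a call needed an adjusted p over all genes tested. *Fhl2*, at −1.02, was not called on all 6 libraries (adjusted p = 0.679, edgeR). The 7 genes called by edgeR became 12 with DESeq2, 3 with limma-trend, 2 with thinned counts and 24 with the replicate block. Leaving out a library gave between 0 and 11 calls: 1 without Atf3 high replicate 1, 1 without replicate 2, 11 without replicate 3, and 0, 6 and 1 without Atf3 low replicates 1, 2 and 3. Of the 10 genes, between 0 and 1 were then called (*Fhl2*, without Atf3 high replicate 3), between 0 and 2 were lower at an unadjusted p under 0.05, and between 0 and 3 were lower without overlap. *Fhl2* was lower without overlap (1 gene) with DESeq2 size factors and with filterByExpr. The median of the 10 genes ran from −0.50 without Atf3 high replicate 3 to −0.078 with library size alone. The causes were not tested.

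Signs turned in *Ttn*, *Actn2*, *Ldb3*, *Tcap* and *Des*. With library size alone *Ttn* was at 0.12, *Actn2* at 0.011, *Ldb3* at 0.045 and *Tcap* at 0.15; with no filter *Ttn* was at 0.0042 and *Tcap* at 0.096; *Ttn* was at 0.0034 with limma-trend, *Tcap* at 0.097 with thinned counts, and *Des* at −0.014 with DESeq2 and at −0.013 with its size factors. Leaving out a library gave *Ttn* from −0.28 to 0.29, *Actn2* from −0.62 to 0.086, *Ldb3* from −0.38 to 0.022, *Tcap* from −2.68 to 0.72 and *Des* from −0.36 to 0.88. Without the library labelled Atf3 high replicate 2, *Ttn* was at −0.092, *Ldb3* at −0.38, *Tcap* at 0.43, *Myoz2* at −0.56 and *Des* at 0.12. *Mybpc3*, *Csrp3*, *Myoz2*, *Fhl2* and *Lmod2* stayed below 0 in all 14 alternatives.

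Replicate numbers are shared between the groups, but the labels do not say that they pair libraries. Deviations from the group mean correlated at 0.495, 0.0619 and 0.506 for numbers 1, 2 and 3 over the 291 genes. Atf3 high replicate 2 correlated at 0.0999 with Atf3 low replicate 1, little more than with its own number, so number 2 had no clear partner. The numbers were not taken as pairs in the main test, and a pairing of numbers 1 and 3 alone was not tested. Atf3 high replicate 2 had 16 UMIs of *Ddx3y* and *Eif2s3y* together and 0 of *Xist*, against 0 and 13 in Atf3 low replicate 2, which speaks against a shared heart for number 2. With the replicate block, 24 genes were called, 1 of the 10 among them (*Fhl2*, log2 fold change −1.26, adjusted p = 0.0263, edgeR, range over its alternatives 0.0263 to 0.9998), and *Ttn* was at 0.0023. Of the markers, *Actc1* (−1.20, adjusted p = 0.00859), *Col1a2* (1.43, adjusted p = 0.0348) and *Col3a1* (1.38, adjusted p = 0.0329) were called with the block only, beside *Myh6* and *Nppa*, which were called without it too.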
